A study of Drosophila melanogaster with 36 samples.

Results

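Whole male flies that expressed wild-type Drosophila SOD1 (dSOD1) under different Gal4 drivers were compared with each other at 5d of age. The arrays were those whose labels named dSOD1 and an age of 5 days, which were 9 of the 36 arrays in the study. There were 3 arrays of MN+glia flies (D42-Gal4 and M1B-Gal4 together), 3 of MN flies (D42-Gal4 alone, for motoneurons) and 3 of glia flies (M1B-Gal4 alone), each with RNA from a pool of 40 adult males. All 9 arrays carried the same UAS-dSOD1 transgene, which the study used as the control for UAS-hSOD1 G85R, an ALS-linked mutant of human SOD1. According to the methods, the arrays of a group were independent biological replicates. The cells that expressed dSOD1, the Gal4 insertions and the rest of the genetic background all changed from one driver line to the next, and their parts in a difference cannot be told apart. No array of a driver line without the transgene was analysed here.

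In the Gal4-UAS system, the yeast transcription factor Gal4 is made in the cells chosen by the driver and switches on any gene placed behind UAS sites. D42-Gal4 is used to drive expression in motoneurons and M1B-Gal4 in glia. The protein expressed here, Cu/Zn superoxide dismutase, converts superoxide into oxygen and hydrogen peroxide. Motoneurons and glia give only a small share of the RNA of a whole fly, most of which comes from the gut, fat body, muscle and reproductive tract. Cytochrome P450s, glutathione transferases, UDP-glycosyltransferases and esterases are the enzyme families with which flies process toxins and hormones, and Jonah proteases and maltases are made in the midgut. In whole-fly RNA, fewer cells of a type and less RNA per cell cannot be told apart.

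All values are log2 signals of probe sets, the groups of short probes that measure a transcript, so that a difference of 1 is 2-fold. The 9 arrays had medians of 6.41 to 6.55. The 3′ probe sets of actin, GAPDH and eIF-4a stood above the 5′ ones by 2.68 to 3.24, by 1.67 to 1.88 and by 2.58 to 3.25 on these arrays. A single array of the study lay apart in this measure, with 5.72, 4.29 and 6.34. It was replicate 2 of the MN+glia G85R 5d flies. In the fit, it enters the comparisons of dSOD1 flies only through the spread that all groups share. Any part it had in the earlier RMA scaling was not examined. Of the markers of adult males, Mst87F and betaTub85D of the testis and SP and Acp36DE of the accessory gland lay at or above the 98th percentile of probe sets, whereas the testis regulators aly and can lay at percentiles of 12.2 and 40.0. The glial marker repo lay at the 72nd and the neuronal marker elav at the 67th percentile. VGlut, the glutamate transporter that motoneurons carry, lay at the 25th percentile and did not pass the test in any comparison of the drivers, with means of 4.32 in MN+glia flies, 4.37 in MN flies and 4.48 in glia flies. Of the other motoneuron markers, Proc did not pass it either. twit passed it in 2 of the 3 pairwise comparisons, with means of 6.85, 6.60 and 6.81 in MN+glia, MN and glia flies.

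The driver lines differed in many transcripts by small amounts and in few by large ones. With limma and an adjusted p of at most 0.05, 4138 of 18769 probe sets (22%) differed between MN+glia and MN flies, 3455 (18.4%) between MN+glia and glia flies and 3087 (16.4%) between MN and glia flies. A difference of at least 2-fold in addition was found for 123 (0.655%), 144 (0.767%) and 166 (0.884%) of them. Of all probe sets 13.1% were higher and 8.96% lower in MN+glia than in MN flies, 10.6% were higher and 7.78% lower in MN+glia than in glia flies, and 7.29% were higher and 9.15% lower in MN than in glia flies. With 2-fold, 45 (0.24%) were higher and 78 (0.416%) lower in MN+glia than in MN flies, 101 (0.538%) were higher and 43 (0.229%) lower in MN+glia than in glia flies, and 124 (0.661%) were higher and 42 (0.224%) lower in MN than in glia flies. The MN+glia flies were also set against the mean of the other 2 lines, and 4414 probe sets (23.5%) differed, with 13.8% higher and 9.76% lower, and 75 (0.4%) differed by 2-fold, with 0.16% higher and 0.24% lower. At least one pair of lines differed by limma's F test in 6101 probe sets (32.5%). Of the 4138 probe sets between MN+glia and MN flies, 59.4% were higher in MN+glia flies, while after cyclic loess scaling 47.9% of 3357 were. Likewise 57.7% of the 3455 probe sets against glia flies were higher, while after that scaling 48.5% of 3486 were, and 58.5% of the 4414 against the mean of both lines, while after it 48.6% of 3871 were. Which direction held the majority thus depended on the scaling. Single arrays moved the counts without a fold limit. Without MN+glia replicate 3, the counts were 2242 against MN flies, 2053 against glia flies and 2101 against the mean of both, and without MN replicate 1 or 3 the first of these was 2500 or 2417. No single array moved a count of 2-fold probe sets by more than 1.5 times. Along the first principal component (37.4% of the variance) the MN+glia arrays lay apart, and along the second (36.0%) the MN arrays lay apart from the glia arrays.

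The gene with the largest fold between MN and glia flies was CG34040, in 1 of its 2 probe sets. That probe set had 6.68, 7.45 and 7.43 on the MN+glia arrays, 9.59, 9.27 and 9.21 on the MN arrays and 3.87, 3.65 and 4.01 on the glia arrays, so that no groups overlapped. It was 45.7-fold higher in MN than in glia flies (adjusted p = 2.55e-13, limma) and 10.2-fold higher in MN+glia than in glia flies. The other probe set was 2.90-fold higher in MN than in glia flies and differed by -0.57 between MN+glia and glia flies (adjusted p = 0.232, limma).

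Cyp6a17 and Cyp12d1-d, both cytochrome P450 genes on 2R, followed. Cyp6a17, which is known for a role in temperature preference, had 9.02, 9.08 and 9.03 on the MN+glia arrays, 4.03, 3.96 and 3.98 on the MN arrays and 9.07, 9.09 and 9.10 on the glia arrays. The MN arrays were low and did not overlap the others. The difference was -5.10 ± 0.08 (SE) between MN and glia flies, or 34.3-fold lower in MN flies (adjusted p = 1.45e-29, limma), and 5.06 between MN+glia and MN flies. MN+glia and glia flies differed by -0.04 (adjusted p = 0.758, limma). Cyp12d1-d, a mitochondrial P450, had the opposite pattern, with 6.13, 6.37 and 6.45 on the MN+glia arrays, 10.71, 10.65 and 10.70 on the MN arrays and 6.14, 6.11 and 6.24 on the glia arrays. Here the MN arrays alone were high, by 23.1-fold over glia flies (4.53 ± 0.10, adjusted p = 1.12e-25, limma) and by 20.7-fold over MN+glia flies. Cyp12d1-d has a near-identical neighbour, Cyp12d1-p, and the probe set may take signal from both. A probe set annotated to both genes differed in the same directions but by less. Its difference was 1.29 between MN and glia flies and -1.67 between MN+glia and MN flies.

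**Figure D1:**
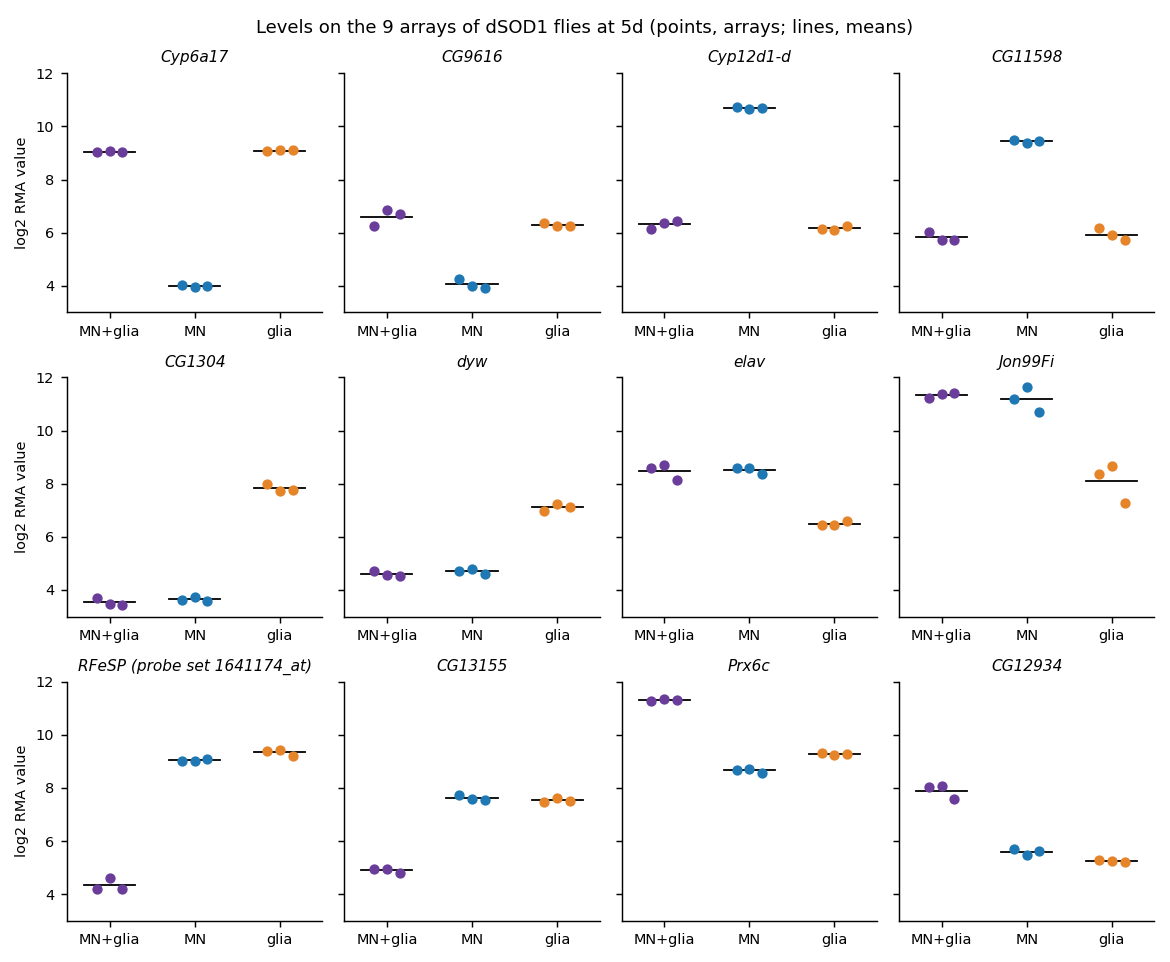
Log2 values of single genes on the 9 arrays of dSOD1 flies at 5d, with MN+glia, MN and glia arrays from left to right in each panel, a point for each array and a line for the mean of 3. Cyp6a17 is low on the 3 MN arrays only, the RFeSP probe set shown is low on the 3 MN+glia arrays only, and the MN+glia arrays lie with either line or apart from both, depending on the gene.

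CG11598, alpha-Est2 and CG4650 were likewise high in MN flies only. alpha-Est2, a carboxylesterase, had 4.39, 4.50 and 4.61 on the MN+glia arrays, 7.44, 7.42 and 7.34 on the MN arrays and 4.26, 4.18 and 4.15 on the glia arrays. It was 9.24-fold higher in MN than in glia flies (adjusted p = 1.11e-23, limma) and 7.45-fold lower in MN+glia than in MN flies. CG11598 averaged 5.83 ± 0.18 in MN+glia flies, 9.44 ± 0.07 in MN flies and 5.93 ± 0.21 in glia flies (SD, n = 3 each), so that MN+glia and glia flies differed by less than their spread. CG4650 averaged 3.55 ± 0.14, 6.46 ± 0.03 and 3.86 ± 0.08 in MN+glia, MN and glia flies, and its arrays split the same way. Ugt49B1, a UDP-glycosyltransferase, and CG17751 were low in MN flies only. The means of Ugt49B1 were 9.64 ± 0.15 in MN+glia flies, 7.74 ± 0.03 in MN flies and 9.92 ± 0.05 in glia flies, and those of CG17751 were 8.35 ± 0.17, 5.70 ± 0.15 and 7.78 ± 0.10.

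In another set of genes the MN+glia flies lay with the MN flies and the glia flies stood apart. CG1304 and Ser6, neighbouring genes for serine proteases on the X chromosome, were high in glia flies. The values of CG1304 were 3.70, 3.48 and 3.44 on the MN+glia arrays, 3.62, 3.75 and 3.60 on the MN arrays and 7.99, 7.73 and 7.76 on the glia arrays. MN+glia and MN arrays overlapped, and the glia arrays lay far above both, by 18.0-fold over MN flies (-4.17 ± 0.08, adjusted p = 3.96e-26, limma) and by 19.6-fold over MN+glia flies. Ser6 had means of 6.54 ± 0.13 in MN+glia flies, 7.10 ± 0.15 in MN flies and 9.61 ± 0.11 in glia flies. dyw, an X-linked gene of the takeout family, averaged 4.60 ± 0.10, 4.70 ± 0.09 and 7.12 ± 0.13 in MN+glia, MN and glia flies. It was 5.74-fold lower in MN+glia than in glia flies (adjusted p = 2.44e-17, limma).

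Genes low in glia flies only included CG31810, Alp11, ftz-f1 and Atg17. CG31810 had 8.15, 8.24 and 8.29 on the MN+glia arrays, 8.77, 8.68 and 8.56 on the MN arrays and 5.27, 5.43 and 5.55 on the glia arrays, and no groups overlapped. It was 9.53-fold higher in MN than in glia flies (adjusted p = 1.34e-20, limma) and 6.99-fold higher in MN+glia than in glia flies. A probe set annotated to both CG31810 and CG31809 was higher by 1.59 in MN than in glia flies. There the MN+glia mean lay between those of MN and glia flies. Alp11, an alkaline phosphatase, averaged 7.39 ± 0.05, 7.04 ± 0.09 and 4.96 ± 0.23 in MN+glia, MN and glia flies. Atg17, which starts the formation of autophagosomes, averaged 7.36 ± 0.47, 7.48 ± 0.08 and 5.35 ± 0.01. ftz-f1, a nuclear receptor, was lower in glia flies by both of its probe sets, by 2.56 and by 1.23 relative to MN flies. For mnb, the minibrain kinase, 1 of 4 probe sets differed between MN and glia flies (2.32 ± 0.25, adjusted p = 2.18e-08, limma), while the other 3 differed by -0.13, 0.06 and 0.07.

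MN+glia flies stood apart from both single-driver lines in a smaller set of genes. The gene with the largest such difference was RFeSP, for the Rieske iron-sulfur protein of respiratory complex III, and only in the dimmer of its probe sets. That probe set had 4.18, 4.62 and 4.20 on the MN+glia arrays, 9.03, 9.01 and 9.07 on the MN arrays and 9.39, 9.41 and 9.20 on the glia arrays. The MN+glia arrays were low without overlap, by 26.1-fold against MN flies (-4.70 ± 0.09, adjusted p = 1.08e-26, limma) and by 32.0-fold against glia flies (adjusted p = 3.54e-27, limma). The brighter probe set of the same gene averaged 12.54 ± 0.07 in MN+glia flies, 12.58 ± 0.04 in MN flies and 12.76 ± 0.09 in glia flies and thus did not share that fall against MN flies. CG13155 averaged 4.90 ± 0.08 in MN+glia flies, 7.61 ± 0.10 in MN flies and 7.53 ± 0.08 in glia flies. It was 6.54-fold lower than in MN flies and 6.18-fold lower than in glia flies.

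Lsp2, a storage hexamerin of the fat body, was also low in MN+glia flies. Its values were 5.63, 6.31 and 5.95 on the MN+glia arrays, 10.23, 8.19 and 9.92 on the MN arrays and 9.74, 9.05 and 9.26 on the glia arrays. The MN+glia arrays lay below all others, and the MN arrays were the most spread. The fall was 11.2-fold against MN flies (-3.48 ± 0.64, adjusted p = 0.00022, limma) and 10.5-fold against glia flies (adjusted p = 0.000284, limma). CG15263 averaged 5.71 ± 0.47 in MN+glia flies, 7.43 ± 0.50 in MN flies and 8.76 ± 0.11 in glia flies, and each pair differed. CG4757 averaged 4.89 ± 0.14 in MN+glia flies and 6.98 ± 0.07 in MN flies, whereas the glia arrays had 8.27, 5.04 and 8.85, of which replicate 2 lay near the MN+glia arrays.

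Prx6c, CG12934 and CG33296 were high in MN+glia flies. Prx6c, which belongs to a cluster of closely similar peroxiredoxin genes whose signals may be shared, had 11.25, 11.35 and 11.32 on the MN+glia arrays, 8.68, 8.72 and 8.58 on the MN arrays and 9.31, 9.25 and 9.29 on the glia arrays. The MN+glia arrays were the highest without overlap, by 6.28-fold over MN flies (2.65 ± 0.11, adjusted p = 3.58e-18, limma) and by 4.07-fold over glia flies (adjusted p = 4.23e-15, limma). The other enzymes of the antioxidant list did not move with it. Of 19 members, 2 were higher and 2 lower in MN+glia than in MN flies, and 3 were higher and 3 lower than in glia flies, Prx6c included. CG12934 averaged 7.89 ± 0.27 in MN+glia flies, 5.60 ± 0.13 in MN flies and 5.24 ± 0.03 in glia flies, and CG33296 averaged 7.69 ± 0.09, 5.58 ± 0.18 and 6.07 ± 0.12.

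The gene lists are described by how many members passed the test, with 1 probe set for each gene. Over all 11982 genes, 17.4% were higher and 9.08% lower in MN+glia than in MN flies, 13.1% were higher and 8.25% lower in MN+glia than in glia flies, and 8.65% were higher and 12.2% lower in MN than in glia flies. The medians over all genes were 0.05, 0.01 and -0.03. No list was tested as a set, and each count can be read against these shares. Where leaving out 1 array lowered a count of 5 or more by over 1.5 times, the count without it is given, and smaller counts often fell as well.

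Most genes of starch and sugar digestion were lower in MN+glia than in MN flies. Of 12 members, 9 were lower and 0 higher in MN+glia than in MN flies, with a median of -1.05. The differences of all 12 lay below 0. In MN flies 8 were higher and 0 lower than in glia flies, with a median of 0.51, or 5 higher without MN replicate 1. In MN+glia flies 6 were lower than in glia flies, with a median of -0.40, and that count was 2 without MN+glia replicate 1. The maltases Mal-A4, Mal-A6, Mal-A7 and Mal-A8, which split maltose into glucose, lie close together on 2R. Mal-A5 of the same list differed by -0.01 between MN+glia and MN flies and did not pass the test. Mal-A6 had 10.01, 10.55 and 10.45 on the MN+glia arrays, 11.68, 11.52 and 11.62 on the MN arrays and 10.77, 10.77 and 10.77 on the glia arrays. The groups did not overlap, and replicate 1 was the lowest of the MN+glia arrays in Mal-A6, Mal-A7 (10.07, 10.75 and 10.77) and Mal-A8 (9.97, 10.61 and 10.67). The differences between MN+glia and MN flies were -1.27 ± 0.11 for Mal-A6 (adjusted p = 9.57e-10, limma), -1.31 for Mal-A7 and -1.39 for Mal-A8. tobi, an alpha-glucosidase controlled by insulin-like and glucagon-like hormones, averaged 10.70 ± 0.47, 12.06 ± 0.13 and 11.06 ± 0.11 in MN+glia, MN and glia flies. Amyrel, an amylase-related gene, averaged 4.98 ± 0.33, 6.62 ± 0.58 and 5.87 ± 0.17, and was 3.11-fold lower in MN+glia than in MN flies (adjusted p = 0.000121, limma).

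**Figure D2:**
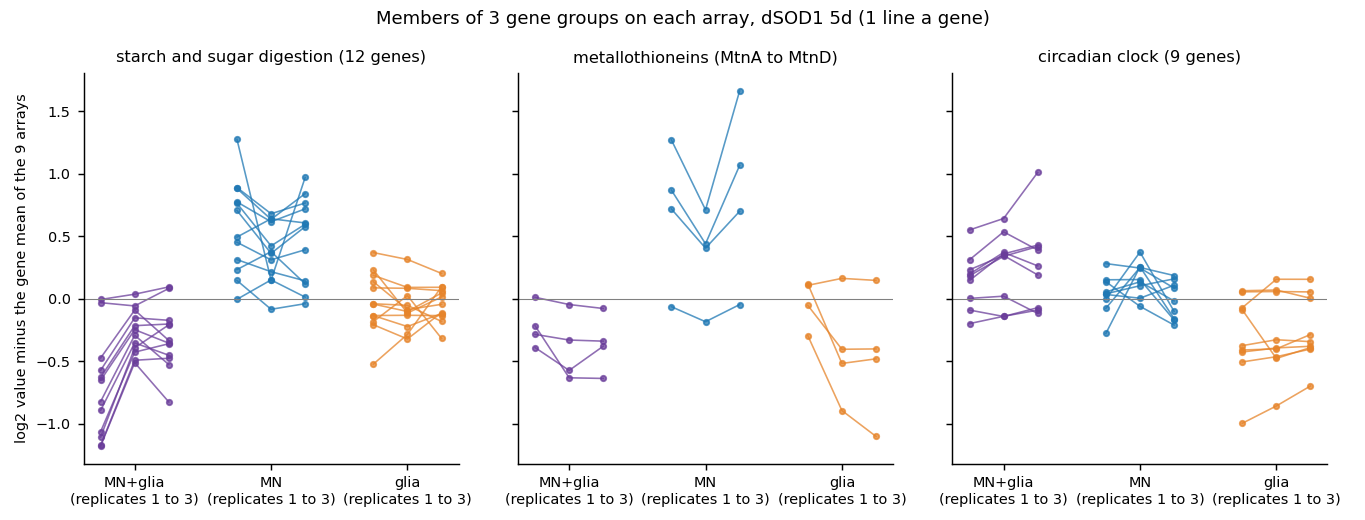
Log2 values of the members of 3 gene groups on each of the 9 arrays, as the distance from each gene's mean over the 9 arrays, with a line for each gene and MN+glia, MN and glia arrays from left to right. Most starch and sugar digestion genes are lower on the MN+glia than on the MN arrays, 3 of the 4 metallothioneins are high on the MN arrays, and most clock genes are lowest on the glia arrays.

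Digestive serine proteases were mostly higher in MN than in glia flies, and in MN+glia flies they split into different patterns. Of 25 members, 14 were higher and 2 lower in MN than in glia flies. In MN+glia flies 10 were higher and 1 lower than in glia flies, and 3 were higher and 10 lower than in MN flies, or 6 lower without MN replicate 1. Jon99Fi had 11.21, 11.37 and 11.41 on the MN+glia arrays, 11.19, 11.63 and 10.72 on the MN arrays and 8.35, 8.66 and 7.28 on the glia arrays. MN+glia and MN arrays overlapped and the glia arrays lay below, by 9.40-fold against MN+glia flies (adjusted p = 1.18e-07, limma) and by 8.45-fold against MN flies. Jon65Ai and its neighbour Jon65Aii followed it, with differences of 2.27 and 2.17 between MN+glia and glia flies. The neighbours Jon25Bii and Jon25Bi were high in MN flies only. Jon25Bii averaged 10.56 ± 0.30, 12.11 ± 0.14 and 10.21 ± 0.23 in MN+glia, MN and glia flies, and was 2.93-fold lower in MN+glia than in MN flies (adjusted p = 4.75e-08, limma). Jonah genes are alike in sequence, and signals may be shared between neighbours.

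**Figure D3:**
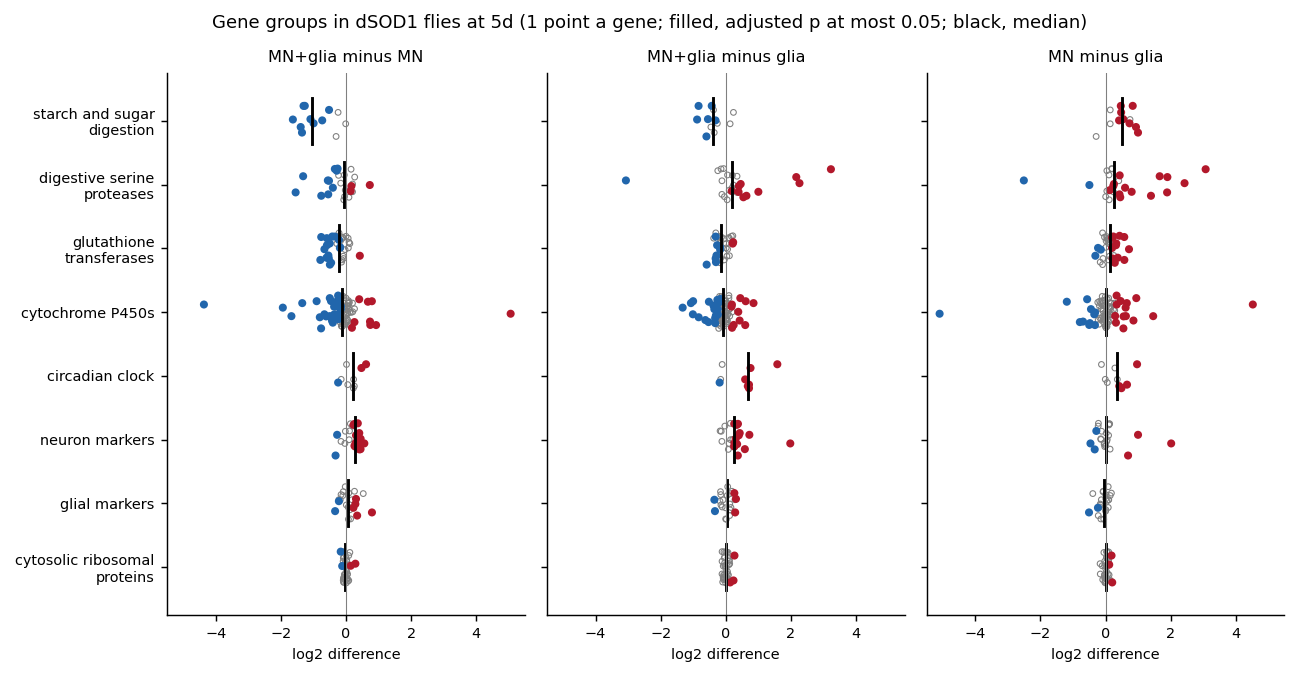
Log2 differences of the members of selected gene lists in the 3 pairwise comparisons of dSOD1 flies at 5d, MN+glia minus MN, MN+glia minus glia and MN minus glia, with a point for each gene. Starch and sugar digestion genes lie below 0 in MN+glia minus MN, and the P450 and protease lists hold single genes far from the rest.

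Glutathione transferases and cytochrome P450s were more often lower than higher in MN+glia flies. Of 34 glutathione transferases, which attach glutathione to toxins, 16 were lower and 1 higher in MN+glia than in MN flies, with a median of -0.20. Relative to glia flies 8 were lower and 2 higher in MN+glia flies, and in MN flies 12 were higher and 3 lower than in glia flies, or 6 higher without MN replicate 1. GstE3 averaged 10.39 ± 0.12 in MN+glia flies, 11.16 ± 0.06 in MN flies and 10.58 ± 0.07 in glia flies, and was 1.70-fold lower in MN+glia than in MN flies (adjusted p = 9.23e-06, limma). GstE7 and GstD2 differed by -0.79 and -0.67 in the same comparison. The members thus moved by less than 2-fold. Of 81 cytochrome P450s, 30 were lower and 9 higher in MN+glia than in MN flies, 18 were lower and 10 higher than in glia flies, or 6 higher without MN+glia replicate 2, and 14 were higher and 11 lower in MN than in glia flies. Apart from Cyp6a17 and Cyp12d1-d, the largest changes were in Cyp309a1 (6.88 ± 0.19, 8.82 ± 0.15 and 8.20 ± 0.06 in MN+glia, MN and glia flies), Cyp4p1 (8.14 ± 0.07, 9.82 ± 0.04 and 8.35 ± 0.10) and Cyp6a8 (9.52 ± 0.16, 10.87 ± 0.10 and 10.60 ± 0.04). Cyp6a8 was lower in MN+glia than in MN flies by 2.54-fold (adjusted p = 7.5e-10, limma) and than in glia flies by 2.10-fold. Cyp6a2, a P450 known from insecticide resistance, was lower in MN flies, with 8.38 ± 0.07, 7.71 ± 0.06 and 8.90 ± 0.04.

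The 35 UDP-glycosyltransferases, which attach sugars to small molecules, had no shared direction. In MN+glia flies 7 were higher and 7 lower than in MN flies, or 4 lower without MN replicate 1, and 3 higher and 6 lower than in glia flies. In MN flies 7 were higher and 7 lower than in glia flies, or 4 higher without MN replicate 1. Ugt35C1 averaged 9.21 ± 0.20, 7.99 ± 0.15 and 9.68 ± 0.04 in MN+glia, MN and glia flies, and Ugt49C1, next to Ugt49B1, averaged 8.08 ± 0.08, 7.04 ± 0.10 and 8.49 ± 0.05. Both were low in MN flies, as was Ugt49B1. Of 13 esterases, 3 were lower and 1 higher in MN+glia than in MN flies, and the number lower was 5 after quantile and 7 after cyclic loess scaling. alpha-Est2 was the only member with a difference above 2-fold.

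Of the metallothioneins, small proteins that bind copper, zinc and cadmium, MtnB, MtnC and MtnD were high in MN flies, while MtnA was lower in MN than in glia flies (difference -0.24, adjusted p = 0.00101, limma). MtnB had 7.04, 6.86 and 7.05 on the MN+glia arrays, 8.70, 8.15 and 9.10 on the MN arrays and 7.14, 6.54 and 6.33 on the glia arrays. The MN arrays lay above all others, by 3.94-fold over glia flies (1.98 ± 0.33, adjusted p = 4.55e-05, limma), and MN+glia flies were 3.16-fold lower than MN flies (adjusted p = 0.000474, limma). MtnC averaged 10.88 ± 0.03 in MN+glia flies, 11.80 ± 0.18 in MN flies and 10.91 ± 0.20 in glia flies, and MtnD averaged 8.91 ± 0.24, 10.20 ± 0.32 and 9.11 ± 0.36. Over the 18 genes of metal binding and transport, 1 was higher and 4 were lower in MN+glia than in MN flies, 0 were higher and 2 lower than in glia flies, and 4 were higher and 1 lower in MN than in glia flies.

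Of 27 members of the peptidoglycan recognition and Imd/Toll list, 11 were lower and 1 was higher in MN+glia than in MN flies, or 7 lower without MN replicate 1. The median was -0.05, and 9 of the 27 differences lay above 0. PGRP-SC2, an amidase that cleaves peptidoglycan, had 10.60, 10.62 and 10.40 on the MN+glia arrays, 12.45, 11.99 and 12.30 on the MN arrays and 11.02, 10.87 and 10.97 on the glia arrays. No groups overlapped, and MN+glia flies were 3.27-fold lower than MN flies (-1.71 ± 0.15, adjusted p = 3.45e-10, limma). PGRP-LB, another amidase, averaged 6.74 ± 0.10, 7.56 ± 0.06 and 7.13 ± 0.15 in MN+glia, MN and glia flies. pirk, an inhibitor of the Imd pathway, averaged 6.25 ± 0.15, 7.92 ± 0.21 and 6.92 ± 0.08, and was 3.18-fold lower in MN+glia than in MN flies (adjusted p = 0.000256, limma). Of 22 antimicrobial peptide genes, 2 were higher and 5 lower in MN+glia than in MN flies, with a median of -0.23, and 1 was higher and 5 lower than in glia flies, with a median of -0.29. The numbers lower were 2 without MN replicate 1 or after cyclic loess scaling against MN flies and 2 without MN+glia replicate 3 against glia flies. Mtk, the antifungal peptide metchnikowin, had 8.99, 8.41 and 8.66 on the MN+glia arrays, 7.61, 8.58 and 7.70 on the MN arrays and 10.70, 8.06 and 11.34 on the glia arrays. Glia replicate 2 was low, and the MN and glia arrays overlapped. The difference of -2.07 ± 0.64 between MN and glia flies (adjusted p = 0.0231, limma) did not pass the test when MN replicate 1 or 3 or glia replicate 1 or 3 was left out.

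Most neuronal genes were slightly higher in MN+glia flies. Of 23 neuron markers, 14 were higher and 2 lower than in MN flies, with a median of 0.26, and 14 were higher and 0 lower than in glia flies, with a median of 0.26. These counts of higher genes were 2 without MN replicate 1 and 7 without MN+glia replicate 3. The 2 markers lower than in MN flies were nSyb, with means of 7.57 in MN+glia and 7.90 in MN flies, and futsch. The futsch difference was -0.28 ± 0.10 (adjusted p = 0.0432, limma). Both of these calls were lost in 5 alternatives. para, the voltage-gated sodium channel, averaged 5.84 ± 0.17 in MN+glia flies, 5.39 ± 0.14 in MN flies and 5.25 ± 0.27 in glia flies. cac, a calcium channel of the presynaptic terminal, averaged 7.89 ± 0.17, 7.33 ± 0.25 and 7.79 ± 0.11. Of 20 genes of acetylcholine and GABA transmission, 9 were higher and 0 lower in MN+glia than in MN flies, with a median of 0.30, or 3 higher without MN replicate 1. In the same list 6 were higher and 1 lower in MN+glia than in glia flies, or 3 higher without glia replicate 1. nAChRalpha4, a subunit of the nicotinic receptor, averaged 4.82 ± 0.17, 4.23 ± 0.14 and 3.85 ± 0.10. VAChT, which loads acetylcholine into vesicles, averaged 7.02 ± 0.10, 6.62 ± 0.17 and 6.46 ± 0.11. Its call between MN+glia and MN flies was lost in 6 alternatives.

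elav, the RNA-binding protein used as a marker of all neurons, was low in glia flies. It had 8.58, 8.71 and 8.13 on the MN+glia arrays, 8.59, 8.58 and 8.35 on the MN arrays and 6.43, 6.46 and 6.58 on the glia arrays. MN+glia and MN arrays overlapped, and the glia arrays lay 4.05-fold below MN flies (2.02 ± 0.21, adjusted p = 1.89e-08, limma) and 3.95-fold below MN+glia flies (adjusted p = 3.94e-08, limma). The value rests on 1 probe set. Over the 23 neuron markers 3 were higher and 3 lower in MN than in glia flies, with a median of 0.01. Besides elav, those higher were futsch, a microtubule-binding protein of axons (1.0, in 1 of its 3 probe sets), and nSyb, neuronal synaptobrevin (0.69).

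Of 23 glial markers, 5 were higher and 2 lower in MN+glia than in MN flies, 3 were higher and 2 lower than in glia flies, and 0 were higher and 2 lower in MN than in glia flies. The first of these counts was 1 without MN replicate 1 and 2 after cyclic loess scaling, and the second was 0 without glia replicate 2. alrm, a marker of astrocyte-like glia, averaged 8.77 ± 0.12 in MN+glia flies, 7.98 ± 0.22 in MN flies and 8.49 ± 0.13 in glia flies. Its call between MN+glia and glia flies was lost in 8 alternatives. repo, the transcription factor of most glia, averaged 8.37 ± 0.12, 8.03 ± 0.26 and 8.25 ± 0.03, a difference of 0.34 ± 0.09 between MN+glia and MN flies (adjusted p = 0.00891, limma) whose call was lost in 4 alternatives. Of 17 genes of motoneurons and the neuromuscular synapse, 4 were higher and 1 lower in MN+glia than in MN flies, or 2 higher without MN replicate 1, with a median of 0.21 and 14 of the 17 differences above 0. In the same list 5 were higher and 0 lower in MN+glia than in glia flies, or 2 without MN+glia replicate 2, and 1 was higher and 2 lower in MN than in glia flies. Of 28 neuropeptide genes, 4 were higher and 0 lower in MN+glia than in MN flies, 7 were higher and 4 lower than in glia flies, and 4 were higher and 5 lower in MN than in glia flies, with 2 higher without MN replicate 3 and 3 lower without MN replicate 1. ITP, ion transport peptide, averaged 9.02 ± 0.09, 8.91 ± 0.06 and 8.28 ± 0.05 in MN+glia, MN and glia flies, and Eh, eclosion hormone, averaged 4.14 ± 0.05, 4.01 ± 0.11 and 4.81 ± 0.27.

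Most clock genes were higher in MN+glia than in glia flies. Of 9 members, 6 were higher and 1 lower in MN+glia than in glia flies, with a median of 0.68, and 4 were higher and 0 lower in MN than in glia flies, with a median of 0.36. Between MN+glia and MN flies 2 were higher and 1 was lower. The lower member was Pdh in both comparisons of MN+glia flies, by -0.19 against glia flies and by -0.24 against MN flies. Pdh is a dehydrogenase of the retina and not a clock gene, but the list held it. tim, whose protein pairs with PER to repress the clock, had 10.02, 10.11 and 10.48 on the MN+glia arrays, 9.40, 9.72 and 9.66 on the MN arrays and 8.48, 8.61 and 8.77 on the glia arrays. The groups did not overlap, and tim was 3.00-fold higher in MN+glia than in glia flies (1.58 ± 0.11, adjusted p = 3.75e-12, limma). Its other probe set was higher by 0.58 in that comparison. Clk, the activator of the clock, averaged 8.57 ± 0.08 in MN+glia flies, 8.52 ± 0.10 in MN flies and 7.86 ± 0.05 in glia flies. vri, which represses Clk, averaged 9.70 ± 0.12, 9.48 ± 0.25 and 8.99 ± 0.02. The partner of Clk, cyc, averaged 7.70 in MN+glia flies, 7.85 in MN flies and 7.85 in glia flies. Neither cyc nor jet passed the test in any of the 3 comparisons.

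Muscle, blood cell and testis genes gave small differences. Of 22 sarcomere genes, 10 were higher and 0 lower in MN+glia than in MN flies, or 4 higher without MN replicate 3, and 6 were lower and 1 higher in MN than in glia flies, or 2 lower without MN replicate 1 and 3 after quantile or cyclic loess scaling. TpnC4, a troponin C of flight muscle, averaged 12.10 ± 0.02 in MN+glia flies, 11.56 ± 0.03 in MN flies and 11.93 ± 0.14 in glia flies. Of 18 hemocyte genes, 9 were lower and 1 higher in MN than in glia flies, with a median of -0.18, or 5 lower without MN replicate 2. Hml, hemolectin, averaged 8.95 ± 0.08, 8.83 ± 0.06 and 9.39 ± 0.06 in MN+glia, MN and glia flies, and PPO2, a prophenoloxidase of crystal cells, averaged 9.47 ± 0.15, 9.64 ± 0.08 and 10.15 ± 0.04. Of 41 testis genes, 10 were lower and 1 higher in MN than in glia flies, or 3 lower without MN replicate 1, and of 41 cytosolic ribosomal proteins 3 were higher and 0 lower.

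Fat body and lipid genes differed one by one. Of 12 storage, yolk and fat body genes, 0 were higher and 3 lower in MN+glia than in MN flies and 1 was higher and 5 lower than in glia flies. Yp3, a yolk protein that is low in males, averaged 6.81 ± 0.09 in MN+glia flies, 6.87 ± 0.29 in MN flies and 5.72 ± 0.16 in glia flies, while Yp1 and Yp2 did not pass the test in any of the comparisons. fit, a fat body gene that feeding induces, averaged 7.65 ± 0.08, 7.64 ± 0.36 and 8.68 ± 0.17. Of 23 lipases and lipid transfer genes, 3 were higher and 9 lower in MN+glia than in MN flies and 5 were higher and 8 lower than in glia flies. The counts of lower genes were 6 and 5 without MN+glia replicate 3. Npc2d, a sterol-binding protein of the NPC2 family, averaged 8.22 ± 0.09 in MN+glia flies, 9.52 ± 0.31 in MN flies and 9.79 ± 0.04 in glia flies. It was 2.98-fold lower in MN+glia than in glia flies (adjusted p = 2.68e-07, limma).

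MN+glia flies carry both drivers, and their place between the single-driver lines was measured over the 166 probe sets that differed by at least 2-fold between MN and glia flies. A position of 0 stands for the glia mean and 1 for the MN mean. Within 0.25 of the MN mean lay 67 probe sets and within 0.25 of the glia mean 41, while 39 lay between, 13 beyond the glia mean and 6 beyond the MN mean. The windows around the lines together cover a wider range of positions than the window between them. The counts alone therefore do not show that probe sets matched a line more than the middle. Of the 26 probe sets on the X chromosome 16 lay near MN and 4 near glia, among them CG1304, Ser6, dyw and elav near MN. On 3L it was 12 and 4 of 27, on 2L 8 and 5 of 19 and on 3R 11 and 7 of 29. Of the 27 on 2R, 5 lay near MN and 11 near glia, and Cyp6a17 and Cyp12d1-d were among those near glia. Most of these probe sets lay nearer the same line on arrays of other flies. Of the 67 probe sets near MN, 66 were nearer MN than glia in dSOD1 flies at 45d, 64 in G85R flies at 5d and 62 in G85R flies at 45d, and of the 41 near glia 34, 35 and 33 were nearer glia. ImpE3 was among the exceptions, with -0.02 in dSOD1 flies at 5d and 1.14 in G85R flies at 5d. Its MN and glia means differed by -1.54 with dSOD1 but only by 0.10 with G85R at 5d. Where the lines differ that little, the position has little meaning, and such probe sets were kept in the counts for the other flies. The position has no test.

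**Figure D4:**
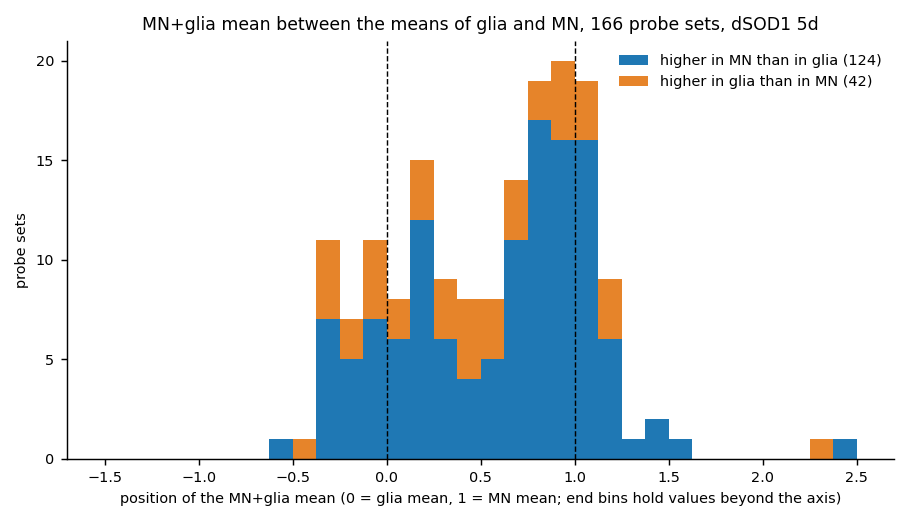
Position of MN+glia flies between glia flies (0) and MN flies (1) for the probe sets that differed by at least 2-fold between MN and glia flies, dSOD1 5d, as the number of probe sets in each step of position. Most lie near 0 or near 1.

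Most large differences between the lines were found again with other transgenes and ages. The dSOD1 flies at 45d and the G85R flies at 5d and 45d were other arrays of the same drivers, and the G85R flies carried UAS-hSOD1 G85R in place of UAS-dSOD1. Of the 166 probe sets with a 2-fold difference between MN and glia flies, 142 were called in the same direction in dSOD1 flies at 45d, 159 in G85R flies at 5d and 139 in G85R flies at 45d, where 20.3%, 21.6% and 19.1% of all probe sets were called in that comparison. Of the 144 between MN+glia and glia flies, 129, 135 and 126 were called again (20.7%, 21.1% and 16.4% of all probe sets), and of the 123 between MN+glia and MN flies, 89, 103 and 93 (13.2%, 14.9% and 11.4%). In all 3 other conditions, 131, 117 and 74 of them were called in the same direction. Cyp6a17 differed by -5.21, -5.15 and -5.25 between MN and glia flies in dSOD1 45d, G85R 5d and G85R 45d flies, and the dimmer RFeSP probe set by -5.33, -4.90 and -5.13 between MN+glia and MN flies. elav differed by 1.93, 2.18 and 2.07 between MN and glia flies. Differences without a fold limit were found again less fully, since 1628, 1795 and 1619 of 3087 were called again between MN and glia flies and 1251, 1320 and 1111 of 4138 between MN+glia and MN flies.

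**Figure D5:**
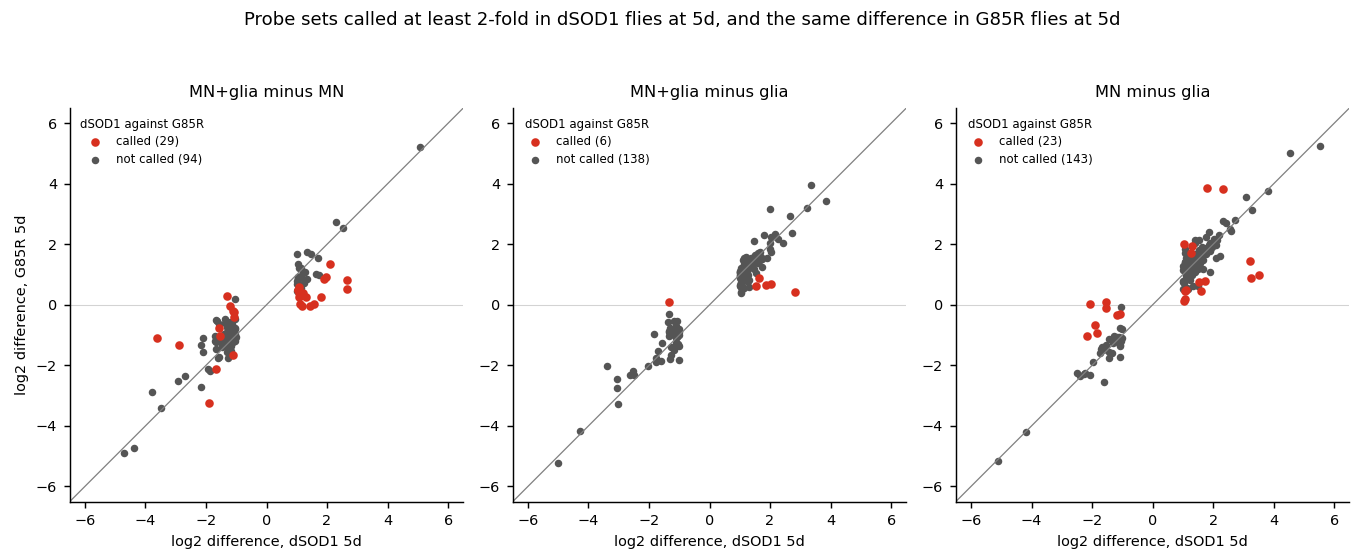
Log2 differences between driver lines in dSOD1 flies at 5d (horizontal axis) and in G85R flies at 5d (vertical axis) for the probe sets with a 2-fold call in dSOD1 flies at 5d, in the 3 pairwise comparisons, with a point for each probe set. Most points lie near the diagonal, and the red points are the 29, 6 and 23 probe sets whose difference was called as unequal in dSOD1 and G85R flies.

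Some differences depended on the transgene or the age. A test of the difference of differences against G85R flies at 5d called 116 probe sets (0.618%) for MN minus glia, 487 (2.59%) for MN+glia minus MN and 41 (0.218%) for MN+glia minus glia. Against dSOD1 flies at 45d it called 582 (3.1%), 524 (2.79%) and 290 (1.55%). Among the probe sets with a 2-fold difference, 23 of 166, 29 of 123 and 6 of 144 were called against G85R flies at 5d, and 45 of 166, 49 of 123 and 19 of 144 against dSOD1 flies at 45d. These probe sets were chosen by their difference in dSOD1 flies at 5d, which is also a term of the tested value. The choice by itself favours such calls, so these shares cannot be compared with those over all probe sets. CG11598 was higher by 3.52 in MN than in glia flies with dSOD1 and by 1.0 with G85R at 5d, and alpha-Est2 by 3.21 and by 1.45, so that both were high in MN flies in either case and more so with dSOD1. Prx6c was higher in MN+glia than in MN flies by 2.65 with dSOD1 and by 0.53 with G85R. MtnB was higher in MN than in glia flies by 1.98 in dSOD1 flies at 5d and differed by -0.47 at 45d. The maltases Mal-A6, Mal-A7 and Mal-A8 differed by -0.36, -0.43 and -0.54 between MN+glia and MN flies in dSOD1 flies at 45d, which was closer to 0 than at 5d.

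The counts against G85R flies at 5d rested on single arrays more than any others. For MN+glia minus MN the count was 192 without the array with the high 3′ to 5′ differences. It was 134, 1541 and 138 without MN replicates 1, 2 and 3, and 862, 200 and 105 without MN+glia replicates 1, 2 and 3. For MN minus glia it was 71, 307 and 62 without MN replicates 1, 2 and 3, and 72 and 75 without glia replicates 2 and 3. For MN+glia minus glia it was 27 without the array with the high 3′ to 5′ differences, 14, 14 and 27 without glia replicates 1, 2 and 3, and 18 without MN+glia replicate 1 or 3. Against dSOD1 flies at 45d the count for MN+glia minus MN was 324 without MN+glia replicate 3, and that for MN+glia minus glia was 175 without glia replicate 3.

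The genes with 2-fold differences were spread over the chromosome arms, with some pairs of neighbours. Between MN and glia flies, the shares were 0.772% of the probe sets on 2L, 0.988% on 2R, 1.01% on 3L, 0.851% on 3R and 1.19% on X. Between MN+glia and MN flies they were 1.02% on 2L, 1.17% on 2R, 0.525% on 3L, 0.587% on 3R and 0.366% on X, and between MN+glia and glia flies 0.772%, 0.695%, 1.16%, 0.587% and 1.28%. Chromosome 4, with 82 probe sets, held 2, 2 and 1 of them in these comparisons. Of 128 genes called between MN and glia flies 18 lay within 5 genes of another, in 9 runs, of which 6 had a single direction, among them Ser6 and CG1304, Jon65Aii and Jon65Ai, and MtnB and MtnD. Between MN+glia and MN flies 18 of 99 genes lay in 8 runs, 7 of a single direction, and the longest held Mal-A4, Mal-A6, Mal-A7 and Mal-A8. Between MN+glia and glia flies it was 12 of 116 genes in 6 runs. The number of runs that randomly placed genes would give was not worked out, so these counts do not show that called genes cluster.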

How the data were processed

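RNA of 36 pools of whole male flies was hybridised to 1-colour Affymetrix Drosophila arrays, 1 array a pool and 3 a group. The authors normalized the arrays by RMA with the Robin software and deposited log2 values. RMA brings all arrays to 1 distribution of values, which can shift small differences. The arrays held 18952 probe sets, and the tests ran on the 18769 that remained without 183 AFFX controls. Names came from the platform annotation: 13647 probe sets had 1 gene symbol, 402 had several and 4720 had none. Only the first were named, apart from the shared probe sets of Cyp12d1-d and CG31810. Neighbours and arms came from RefSeq's Release 6 gene table.

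Group means were fitted over all 36 arrays in 12 groups with limma 3.58.1 in R 4.3.3 (lmFit and eBayes, 24 residual degrees of freedom), with Benjamini-Hochberg adjustment in each comparison, an adjusted p of at most 0.05 and, where stated, 2-fold. On simulated MN minus glia data with 18769 probe sets, 95% of 100 changes of 1.5-fold and 100% of 100 changes of 2-fold were found, with 8 false calls. The simulated noise was independent for each probe set and array. Deviations that the probe sets of an array share were not simulated, so the real shares may differ. The arrays give no counts, so their number limits the precision.

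The groups and gene lists were chosen with earlier results of these data known. The lists were trimmed of misnamed members afterwards, although Pdh stayed in the clock list. Named genes were the 10 largest rises and falls in each pairwise comparison, the 6 largest each way against the mean of both lines, up to 3 each way in each list and the 3 largest each way in each difference of differences, all with an adjusted p of at most 0.05, and a few preset marker genes (repo, elav, VGlut). Each list used the probe set with the highest mean of each gene. The methods leave out a degraded array of glia G85R 5d, whereas among the deposited arrays the one with high 3′ to 5′ differences is labelled MN+glia G85R 5d, and it was kept in the main results. Sod1 is not reported here. Alternatives were other scalings (quantile, cyclic loess), fits with the 9 arrays only, array weights, a filter on dim probe sets, the replicate number as a block, a trended eBayes prior, p-values adjusted over the 3 comparisons together, 1 probe set per gene, no degraded array and leaving out each array. Leaving out the degraded array for the repeats in G85R flies, and the list counts under other scalings and without each array, were added after the data were seen.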

Additional observations from a re-analysis of the deposited data

Results flagged for a closer look

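These results were picked out because a difference between driver lines in dSOD1 flies at 5d was not the same in other flies of the same lines, by limma's test of the difference of differences. Each value is the difference in dSOD1 flies at 5d minus that in the other flies, on the log2 scale. They are the largest each way, so their size is partly a result of the choice.

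Against G85R flies at 5d, MN minus glia gave -2.12 for CG17751, -2.05 for CG17177 and -1.91 for CG31244, and 2.52 for CG11598, 2.36 for CG31810 and 1.76 for alpha-Est2. CG17751 differed by -2.08 between MN and glia flies with dSOD1 and by 0.04 with G85R. For MN+glia minus MN the values were -2.53 for CG11598, -1.60 for CG13482, -1.58 for alpha-Est2, 2.80 for CG31809, 2.12 for Prx6c and 2.04 for CG31244. CG31809 differed by -0.37 between MN+glia and MN flies with dSOD1 and by -3.17 with G85R. For MN+glia minus glia the values were -1.41 for CG3348, -1.13 for DIP-delta, -0.94 for Lectin-galC1, 2.38 for CG31810, 1.34 for Prx6c and 1.28 for NimC1, a phagocytosis receptor of hemocytes. The call of CG3348 was lost in 5 alternatives and that of CG13482 for MN+glia minus MN in 4.

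Against dSOD1 flies at 45d, MN minus glia gave -3.09 for CG7763, -2.08 for CG33109 and -2.02 for CG13026, and 2.45 for MtnB, 2.10 for CG34040 and 1.75 for Nmdmc, an enzyme of mitochondrial folate metabolism. CG7763 was higher by 1.09 in MN than in glia flies at 5d and by 4.18 at 45d. For MN+glia minus MN the values were -2.25 for MtnB, -1.54 for CG13482, -1.53 for CG14499, 2.79 for CG31832, 2.65 for CG33109 and 2.13 for CG7763. CG33109 was higher by 1.42 in MN+glia than in MN flies at 5d and had a difference of -1.23 at 45d. For MN+glia minus glia the values were -2.57 for CG34040, -2.21 for Npc2d, -1.36 for CG3348, 2.58 for CG13947, 2.06 for CG31832 and 1.50 for CG15553. The calls of CG14499 and CG13482 for MN+glia minus MN were lost in 4 and in 2 alternatives. The values of CG34040 came from different probe sets, -2.57 from the one that was dim in glia flies and 2.10 from the other.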

How the results depend on the processing

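None of the 355 results on single genes changed direction in any alternative. Over these results, 6347 of 6664 pairs of a result and an alternative kept the call and 317 lost it. With array weights, 5912 probe sets were called for MN+glia minus glia, 6946 for MN+glia minus the mean of both lines, 415 and 2526 for MN minus glia against G85R 5d and dSOD1 45d, 2256 for MN+glia minus MN against dSOD1 45d, and 82 and 725 for MN+glia minus glia against G85R 5d and dSOD1 45d. Above the median level, 90 probe sets had a 2-fold difference for MN+glia minus glia and 48 for MN+glia minus the mean. Without the degraded array, 192 were called for MN+glia minus MN and 27 for MN+glia minus glia against G85R 5d. After cyclic loess scaling, the share of called probe sets with a positive value was 48.5% against 57.7% in the main results for MN+glia minus glia, 48.6% against 58.5% for MN+glia minus the mean, and, against dSOD1 45d, 64.3% against 40.4% for MN minus glia and 38.5% against 62.2% for MN+glia minus MN. The causes were not tested.

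When each array was left out in turn, the calls ranged between 2242 and 4812 for MN+glia minus MN, 2053 and 3601 for MN+glia minus glia, 2131 and 3111 for MN minus glia, and 2101 and 5097 for MN+glia minus the mean. Against G85R 5d they ranged between 105 and 1541, 14 and 45, and 62 and 307 for the 3 pairwise comparisons in the same order, and against dSOD1 45d between 324 and 577, 175 and 321, and 398 and 823. The 2-fold counts ranged between 112 and 142, 136 and 148, and 161 and 177.

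With the replicate number as a block, 4105, 3412 and 3080 probe sets were called over the 36 arrays and 3561, 2979 and 2514 over the 9. Same-numbered arrays did not deviate together throughout (r between -0.20 and 0.15, and 3 of 9 arrays correlated best with their own number), so the numbers do not pair the arrays. The p-values rest on the spread between the pools of a group, estimated over all 12 groups and not over the 3 compared groups alone. No second insertion or line of a driver was analysed.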
